A study of Homo sapiens with 8 samples.

Results

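The genes described here are 10 genes of serine, one-carbon and asparagine synthesis, among 20033 protein-coding genes: PHGDH, PSAT1, PSPH, SHMT1, SHMT2, MTHFD1, MTHFD2, MTHFD1L, ASNS and ATF4. They were chosen by name for their role, with earlier results of these data known. For each gene, peaks of the CCAAT-binding factor NF-Y within 1000 bp of either gene end were looked up in 6 peak lists, with their distance and with the RH30 lists of edited and control cells set side by side. NF-Y consists of the subunits NFYA, NFYB and NFYC, and CUT&RUN releases the DNA around an antibody-bound protein for sequencing.

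The cells were RH30 and RH4, established rhabdomyosarcoma lines labelled PAX3-FOXO1+. RH30 cells carried an inducible cytosine base editor, received a guide RNA, were selected with blasticidin and were collected 8 days after rapamycin switched editing on. The guides sgCCAAT2a and sgCCAAT2b were aimed at the CCAAT motif of the cells' own PAX3 promoter, and sgCtrl1 and sgCtrl2 were control guides whose targets the labels do not give. All 4 RH30 libraries, controls included, thus share the editor, the selection and the rapamycin. RH4 cells were uninfected and untreated, and gave 1 NFYB and 1 NFYC library. The libraries titled RH30 carry RH4 as cell line label, while their titles and the design text say RH30, the name used here. None of the lists holds expression values, so the cell lines could not be set against marker genes. The sources used here do not say whether the RH30 cells were a clone or a pool.

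Each guide and each antibody had 1 library, so there is no replicate error, and no difference between conditions could be tested. The RH30 lists held 2451 peaks from 21.2 M tags with sgCCAAT2a and 2558 peaks from 28.2 M tags with sgCCAAT2b, against 4025 peaks from 13.9 M tags with sgCtrl1 and 6687 peaks from 10.5 M tags with sgCtrl2. The share of tags inside peaks was 1.22% and 1.46% in the edited libraries, against 2.40% and 3.10% in the controls. The edited libraries thus had fewer peaks and a lower share of tags in them, and the part of this in the results below was not tested. In RH4 cells there were 3243 peaks for NFYB and 3760 for NFYC, from libraries of unknown depth. PAX3, the gene the guides were aimed at, had a peak in neither edited list and in both control and both RH4 lists. Of all 2258 genes with a peak in both control lists, 21.7% likewise had one in neither edited list. All peaks within a RH30 list had nearly the same width, 153 bp with sgCCAAT2a, 163 bp with sgCCAAT2b, 189 bp with sgCtrl1 and 197 bp with sgCtrl2 as medians, so their width carries no measure of strength. The deposited lists give positions and no heights.

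Serine is made from an intermediate of glycolysis by PHGDH, PSAT1 and PSPH in turn. The hydroxymethyltransferases SHMT1 in the cytosol and SHMT2 in mitochondria then move a carbon unit from serine to tetrahydrofolate and leave glycine. MTHFD1 in the cytosol and MTHFD2 and MTHFD1L in mitochondria interconvert the folate-bound carbon units, which feed purine, thymidylate and methionine synthesis. ASNS makes asparagine from aspartate, and ATF4 is a stress-induced transcription factor known to activate many of these genes. NF-Y binds the pentamer CCAAT, mostly a short way upstream of transcription starts.

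The promoters below are shown because they carry the CCAAT motifs at, or next to, which the peaks of these genes lay. Each runs 5′ to 3′ on the gene's own strand from 250 bases before to 50 bases after a listed transcription start, and comes from the RefSeq promoter table for GRCh38.p14, in which 8 of the 10 genes had an entry. Capitals mark CCAAT, or ATTGG where the motif reads on the opposite strand. PSAT1 lies at chr9:78296875-78297174 (+), MTHFD2 at chr2:74198365-74198664 (+), MTHFD1 at chr14:64388103-64388402 (+), SHMT1 at chr17:18363501-18363800 (-) and PHGDH at chr1:119711684-119711983 (+).
PSAT1: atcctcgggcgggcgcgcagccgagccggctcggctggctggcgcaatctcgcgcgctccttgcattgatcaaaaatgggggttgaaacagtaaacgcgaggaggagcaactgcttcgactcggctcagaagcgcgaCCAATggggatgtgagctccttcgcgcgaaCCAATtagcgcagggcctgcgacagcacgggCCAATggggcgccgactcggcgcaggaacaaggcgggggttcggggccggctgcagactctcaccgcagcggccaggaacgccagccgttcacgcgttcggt
MTHFD2: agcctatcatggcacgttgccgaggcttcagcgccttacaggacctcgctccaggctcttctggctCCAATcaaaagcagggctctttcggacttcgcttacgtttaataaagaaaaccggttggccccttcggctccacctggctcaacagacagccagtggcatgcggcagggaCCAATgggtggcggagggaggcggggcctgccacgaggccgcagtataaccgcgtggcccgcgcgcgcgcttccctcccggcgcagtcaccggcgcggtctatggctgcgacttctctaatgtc
MTHFD1: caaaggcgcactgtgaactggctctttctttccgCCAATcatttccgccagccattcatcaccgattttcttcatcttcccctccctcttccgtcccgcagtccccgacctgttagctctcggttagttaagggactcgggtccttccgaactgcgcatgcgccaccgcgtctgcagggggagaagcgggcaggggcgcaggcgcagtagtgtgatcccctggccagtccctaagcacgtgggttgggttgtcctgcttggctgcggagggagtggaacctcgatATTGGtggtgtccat
SHMT1: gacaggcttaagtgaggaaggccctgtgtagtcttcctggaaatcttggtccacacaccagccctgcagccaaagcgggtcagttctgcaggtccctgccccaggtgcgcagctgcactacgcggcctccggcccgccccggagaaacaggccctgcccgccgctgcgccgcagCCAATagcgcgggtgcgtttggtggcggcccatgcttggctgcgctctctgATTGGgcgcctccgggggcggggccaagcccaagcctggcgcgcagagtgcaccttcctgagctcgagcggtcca
PHGDH: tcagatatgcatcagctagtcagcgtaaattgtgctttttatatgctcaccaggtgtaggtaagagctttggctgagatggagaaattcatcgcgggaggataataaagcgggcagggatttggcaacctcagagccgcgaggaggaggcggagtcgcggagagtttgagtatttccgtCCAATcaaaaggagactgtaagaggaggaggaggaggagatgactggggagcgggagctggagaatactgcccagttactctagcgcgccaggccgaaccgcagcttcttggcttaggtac

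CCAAT on either strand was present in the promoter sequence of 6 of the 8 genes with an entry, namely PSAT1, MTHFD2, MTHFD1, SHMT1, PHGDH and MTHFD1L. Of all 15842 genes with an entry, 42.1% held it. PSAT1 had 3 copies, a number reached by 4.72% of genes. They began 113, 83 and 52 bp before the start, all on the gene strand, with spacings of 30 and 31 bp. MTHFD2 had 2 copies 110 bp apart, beginning 184 and 74 bp before the start. SHMT1 had 1 copy on each strand, beginning 76 and 25 bp before the start. PHGDH had a single copy beginning 71 bp before the start. MTHFD1 had 1 copy beginning 216 bp before the start and 1 on the opposite strand beginning 35 bp after it. ATF4 and ASNS had no CCAAT in these windows.

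NF-Y peaks lay at 7 of the 10 genes in at least 1 library. In the edited RH30 cells, 6 of 10 genes had a peak with sgCCAAT2a, where 8.9% of all protein-coding genes had one, and 5 of 10 with sgCCAAT2b, where 9.27% did. In the control RH30 cells, 7 of 10 genes had a peak with sgCtrl1, against 12.6% of all genes, and the same 7 with sgCtrl2, against 16.8%. In RH4 cells, 6 of 10 had an NFYB peak, against 15.0%, and the same 6 an NFYC peak, against 15.3%. The genes' share was above that of all genes in each of the 6 lists. The genes were chosen with earlier results of these data known, so this excess is a description and no test of the pathway. Both RH4 lists and the list of peaks that the authors deposited as shared by NFYB and NFYC held the same 6 genes, and 13.4% of all genes had an entry of that shared list. At these 6 genes the shared entries have the same bounds as the NFYC peaks, so the shared list adds no separate evidence.

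The genes fell into 4 patterns. PSAT1, PSPH, MTHFD1, MTHFD2 and ATF4 had a peak in all 6 lists, as did 7.03% of all genes. SHMT1 had a peak in 5 lists, all but sgCCAAT2b, a pattern held by 65 of the 20033 genes. PHGDH had a peak with both control guides alone, a pattern held by 80 genes. SHMT2, MTHFD1L and ASNS had none at a gene end in any list, as did 78.3% of all genes.

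**Figure D1:**
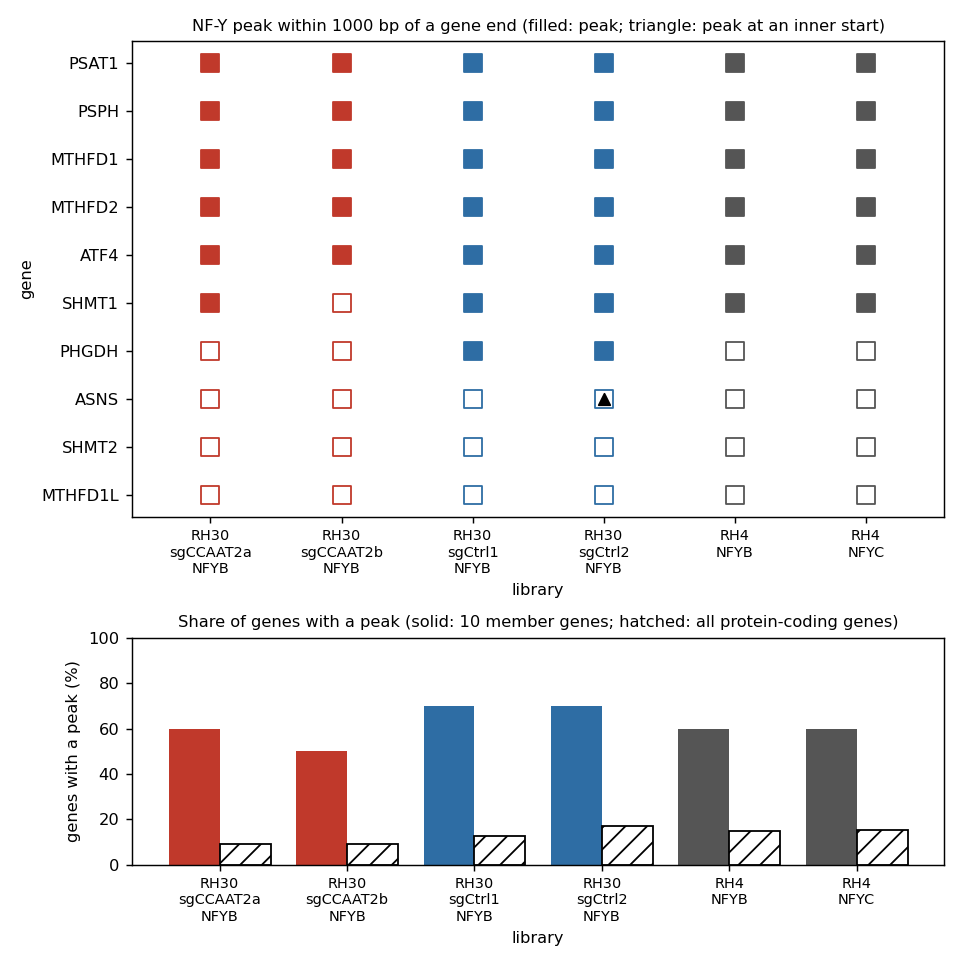
Top, presence (filled square) or absence (open square) of an NF-Y peak within 1000 bp of a gene end for each of the 10 genes (rows) in each library (columns; red edited RH30, blue control RH30, grey RH4), with a triangle for a peak at a start of ASNS inside the annotated gene. Bottom, percent of the 10 genes (solid) and of all 20033 protein-coding genes (hatched) with such a peak; the solid bars stand for 5 to 7 of 10 genes, and the hatched bars between 8.9% and 16.8%.

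Of the 7 genes with a peak in both control libraries, 5 also had one in both edited libraries, 1 in a single edited library and 1 in neither. Among all 2258 genes with a peak in both controls, 66.3% had one in both edited libraries, 12.1% in exactly 1 and 21.7% in neither. The split of the 7 genes was thus near that of all such genes.

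The first enzyme of serine synthesis, PHGDH, was the gene whose peak was absent from both edited lists. The gene spans positions 119711934 to 119744215 of chromosome 1 (hg38, + strand). With sgCtrl1 the peak ran over 119711934–119712122 and with sgCtrl2 over 119711841–119712037, with centres 94 and 5 bp inside the gene, just after the start. The control peaks overlapped by 104 bp. The CCAAT shown above lay inside the sgCtrl2 peak and outside the sgCtrl1 peak. Neither RH4 list had a peak at this gene, so PHGDH was seen with 2 of the 6 libraries.

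The PHGDH peak stood at place 3002 of 4025 with sgCtrl1 and place 3522 of 6687 with sgCtrl2, later in either control list than the peaks of the other 6 genes found in both. The file headers do not say what orders the RH30 entries, so place serves as a description only. Of the 50 genes with a peak in both controls and an sgCtrl2 peak within 250 places of that of PHGDH, 28.0% had a peak in both edited lists, 12.0% in 1 and 60.0% in neither. The absence of PHGDH from both edited lists was therefore shared by most genes of like place.

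PSAT1, the aminotransferase of the second step, had a peak over its 3 CCAAT copies in all 6 libraries. It spans positions 78297125 to 78330093 of chromosome 9 (+ strand). The edited peaks ran over 78296951–78297103 with sgCCAAT2a and 78296970–78297132 with sgCCAAT2b. The control peaks ran over 78296950–78297138 with sgCtrl1 and 78296946–78297142 with sgCtrl2. In RH4 cells the NFYB peak ran over 78296856–78297336 and the NFYC peak over 78296951–78297150. The 6 centres stood 98, 74, 81, 81, 29 and 74.5 bp upstream of the start in that order, a range of 69 bp. In both controls the centre fell exactly on the middle copy of CCAAT, and in the edited libraries it fell 17 bp from that copy with sgCCAAT2a and 7 bp with sgCCAAT2b. All 3 copies lay inside the peak in each of the 6 lists.

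PSPH, the phosphatase of the last step, had a peak next to its higher-coordinate end in all 6 libraries. It spans positions 56011064 to 56051444 of chromosome 7. Peak centres lay 220 bp outside that end with sgCCAAT2a and 244 bp with sgCCAAT2b, against 227 bp with sgCtrl1 and 269 bp with sgCtrl2, and 196.5 bp with NFYB and 241.5 bp with NFYC in RH4 cells. Every one of these peaks also lay within 1000 bp of CCT6A, a subunit gene of the cytosolic chaperonin, which begins at position 56051765 of the reference and runs to 56063989. The peaks cannot be assigned to PSPH or CCT6A from their position. No promoter sequence is shown for PSPH, whose entry and that of SHMT2 were not in the table used here.

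The cytosolic hydroxymethyltransferase SHMT1 differed between the edited libraries. It spans positions 18327873 to 18363550 of chromosome 17 (- strand), with its start at the higher coordinate. The sgCCAAT2a list had a peak over 18363504–18363656 and the sgCCAAT2b list had none. The sgCtrl1 peak ran over 18363521–18363709 and the sgCtrl2 peak over 18363501–18363697. In RH4 cells the peaks ran over 18363374–18363814 for NFYB and 18363504–18363699 for NFYC. The 5 centres stood 30 to 65 bp upstream of the start, the narrowest spread of the genes with a peak in most lists, and both CCAAT copies lay inside each of the 5 peaks.

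SHMT1 had the earliest sgCtrl2 peak of the 7 genes, at place 360 of 6687, and its other places were 922 of 2451 with sgCCAAT2a and 627 of 4025 with sgCtrl1. Of the 474 genes with a peak in both controls within 250 places of it, 93.7% had one in both edited lists, 5.27% in exactly 1 and 1.05% in neither. A peak in a single edited library was thus uncommon among genes of like place. The sgCCAAT2b library held more tags and more peaks than the sgCCAAT2a library, and the part of depth or list length in the missing peak was not tested. With 1 library per guide, the guide and the library cannot be told apart. SHMT2, the mitochondrial counterpart, spans 57229711 to 57234935 of chromosome 12 and had no peak in any list at either end.

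MTHFD2, the mitochondrial dehydrogenase and cyclohydrolase, had a peak upstream of its start in all 6 libraries. It spans positions 74198615 to 74217565 of chromosome 2 (+ strand). Peaks ran over 74198408–74198560 with sgCCAAT2a and 74198402–74198564 with sgCCAAT2b, against 74198390–74198578 with sgCtrl1 and 74198448–74198644 with sgCtrl2. The RH4 peaks ran over 74198314–74198796 for NFYB and 74198388–74198600 for NFYC. Both edited peaks and the sgCtrl1 peak were centred 131 or 132 bp upstream of the start, between the 2 CCAAT copies. The sgCtrl2 centre stood 69 bp upstream and 3 bp from the nearer copy, and that peak held only this copy. The other 5 peaks held both copies. With sgCtrl1 a further peak at 74198978–74199166 was centred 457 bp inside the gene, and no other library had it.

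MTHFD1, the cytosolic enzyme with 3 folate activities, had a peak in all 6 libraries, with the sgCtrl2 peak nearer the start than the other RH30 peaks. It spans positions 64388353 to 64460025 of chromosome 14 (+ strand). Peaks ran over 64388050–64388202 with sgCCAAT2a and 64388006–64388168 with sgCCAAT2b, against 64388004–64388192 with sgCtrl1 and 64388162–64388358 with sgCtrl2. The RH4 peaks ran over 64387856–64388338 for NFYB and 64387985–64388312 for NFYC. The edited centres stood 227 and 266 bp upstream of the start, the sgCtrl1 centre 255 bp, the sgCtrl2 centre 93 bp, and the RH4 centres 256 bp for NFYB and 204.5 bp for NFYC. The sgCtrl2 peak overlapped the others in RH30 by 41 bp with sgCCAAT2a, 7 bp with sgCCAAT2b and 31 bp with sgCtrl1. It overlapped the wider RH4 peaks by 177 bp for NFYB and 151 bp for NFYC. The CCAAT beginning 216 bp before the start lay inside 5 peaks and outside the sgCtrl2 peak, which held no CCAAT of the printed window. The centres at MTHFD1 spread over 173 bp, the widest of the 7 genes when the further sgCtrl1 peak of MTHFD2 is left out.

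MTHFD1L, the mitochondrial formyltetrahydrofolate synthetase, spans 150865702 to 151101887 of chromosome 6 (+ strand) and had no peak in any list, either at a gene end or at its 4 listed starts. Its promoter did hold a CCAAT, beginning 40 bp before the listed start 150866333. Among all genes without a peak at a listed start in any library, 32.9% held a CCAAT in the window. That share was 37.9% for genes with a peak in 1 library, 66.6% in 2, 73.6% in 3, 83.0% in 4, 88.4% in 5 and 92.3% in all 6.

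ATF4, the transcription factor, had the peaks farthest upstream. It spans positions 39520559 to 39522686 of chromosome 22 (+ strand). Peaks ran over 39520073–39520225 with sgCCAAT2a and 39520062–39520224 with sgCCAAT2b, against 39520072–39520260 with sgCtrl1 and 39519945–39520141 with sgCtrl2. The RH4 peaks ran over 39519843–39520343 for NFYB and 39519900–39520260 for NFYC. Centres stood 410 and 416 bp upstream in the edited lists, 393 and 516 bp in the controls, and 466 and 479 bp in RH4 cells. The sgCtrl2 peak lay further upstream than the other RH30 peaks, and it overlapped them by 69 bp with sgCCAAT2a, 80 bp with sgCCAAT2b and 70 bp with sgCtrl1. It lay wholly inside both RH4 peaks, and its centre was 37 bp from that of NFYC. The promoter window searched for motifs begins 250 bp before the start, so of the 6 peaks only the RH4 NFYB peak reached into it, by 35 bp. The lack of CCAAT in that window says nothing about the DNA under the ATF4 peaks, which was not searched here.

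**Figure D2:**
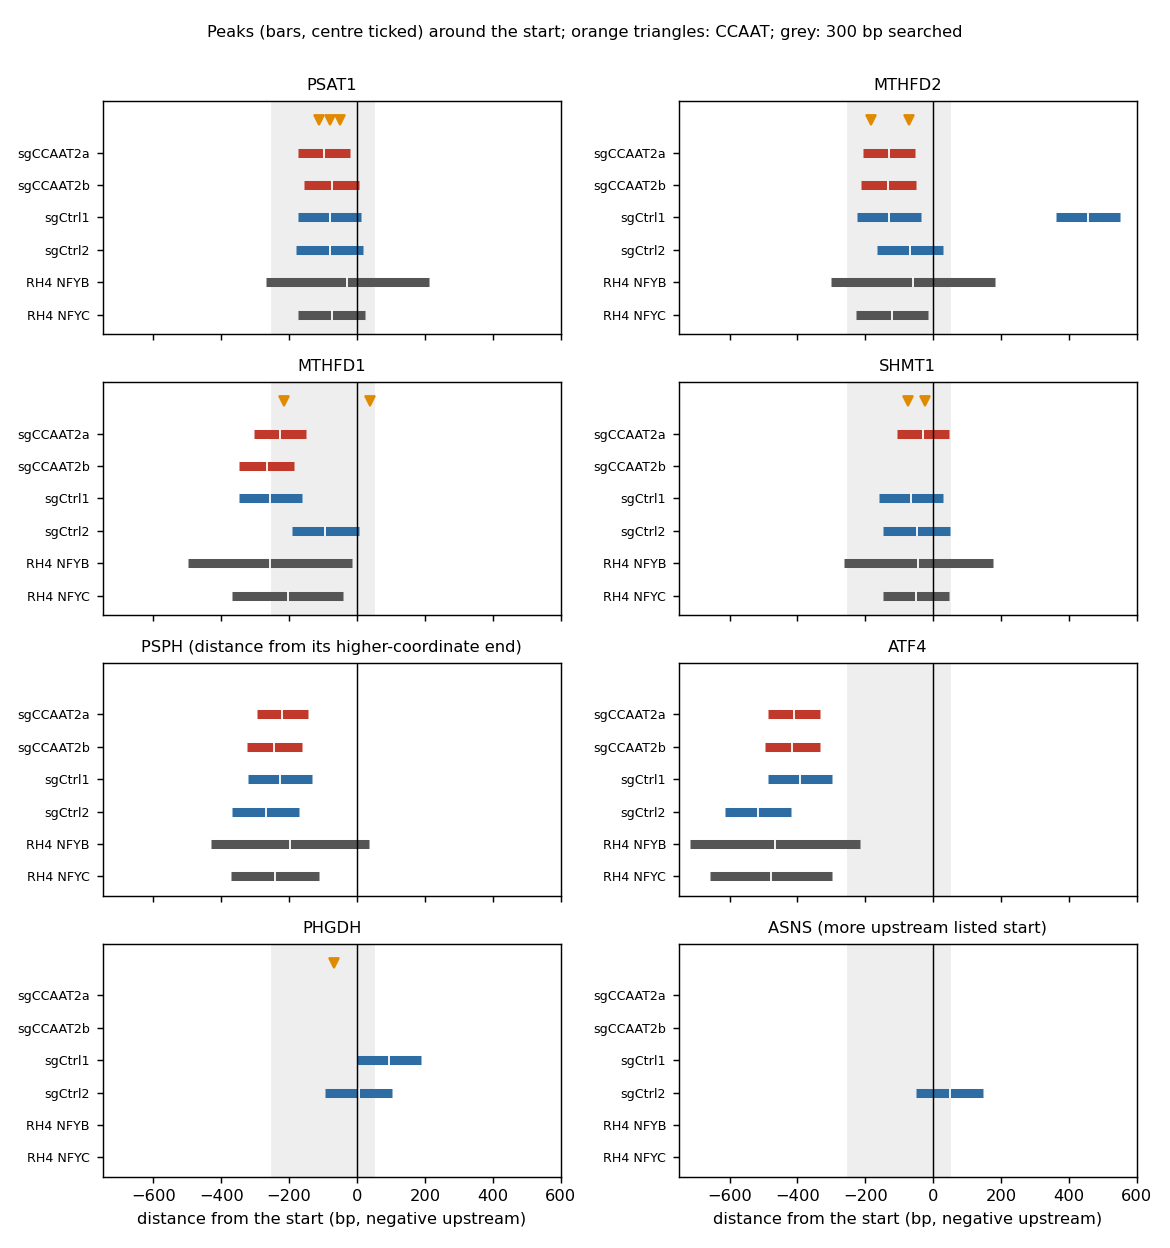
Peaks (bars, with the centre ticked) of the 6 libraries at 8 genes against distance in bp from the listed start (negative upstream; for PSPH, from its higher-coordinate end, negative outside the gene; for ASNS, from the more upstream of its listed starts), with CCAAT copies as orange triangles and the 300 bp searched in grey. The sgCtrl2 bar is displaced from the other RH30 bars at MTHFD1, where it lies nearer the start, and at ATF4, where it lies farther upstream.

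ASNS, which makes asparagine, had no peak within 1000 bp of a gene end, but 1 peak at a start inside its annotated span, noticed after its values were seen. The gene spans positions 97851677 to 97928441 of chromosome 7 (- strand), and its listed starts are 97872408 and 97872165. The sgCtrl2 peak ran over 97872262–97872458, with its centre 48 bp inside the transcript from the first of these starts and 20683 bp inside the nearest gene end. No other library had a peak there. With ASNS counted, 7 of 8 genes had a peak at a listed start with sgCtrl2, against 18.2% of all genes with a listed start. The count was 5 with sgCCAAT2a, 4 with sgCCAAT2b, 6 with sgCtrl1 and 5 each with RH4 NFYB and NFYC. The shares of all genes were 9.99%, 10.4%, 13.9%, 16.5% and 16.9% in that order. Of the 2882 genes with an sgCtrl2 peak at a listed start, 238 had none at a gene end. The ASNS promoter is printed here because it holds the composite core of ATF4 and C/EBP factors, TGATGNAA, and no CCAAT. It lies at chr7:97872359-97872658 (-) of GRCh38.p14, and capitals mark that core.
ASNS: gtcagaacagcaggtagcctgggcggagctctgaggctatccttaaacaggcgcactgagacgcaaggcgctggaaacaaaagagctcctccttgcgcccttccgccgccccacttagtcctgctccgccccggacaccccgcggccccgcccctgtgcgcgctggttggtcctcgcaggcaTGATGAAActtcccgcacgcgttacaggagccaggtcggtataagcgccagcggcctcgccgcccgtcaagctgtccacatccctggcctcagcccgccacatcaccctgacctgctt

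The core began 68 bp before the ASNS start, at positions 97872469 to 97872476, and so lay outside the sgCtrl2 peak. TGATGNAA, read on both strands, was in the promoter sequence of 2 of the 8 genes, ASNS and MTHFD1L, and of 3.6% of all genes with an entry. The E-box CACGTG was in 3 of 8, ATF4, MTHFD1 and MTHFD1L, against 10.9% of all genes. The GC box GGGCGG was in 5 of 8, against 64.3%, and TATAAA in ATF4 and PHGDH, against 12.4%. Matches of different motifs overlapped in 0 of the 8 genes. A match is a string of letters in the reference and not a measured site.

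Around the threshold, the farthest centres inside it were those of ATF4, at 516 bp with sgCtrl2, 479 bp with RH4 NFYC and 466 bp with RH4 NFYB, followed by the further sgCtrl1 peak of MTHFD2, at 457 bp. The nearest peak outside it was centred 10232 bp beyond the end of ATF4 with sgCtrl1, near RPS19BP1, and the RH4 lists had it as well.

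At each of the 6 genes with a peak in an edited list, the edited peaks stood later in their lists, in percent of the list, than both control peaks. For MTHFD2 this holds for the earlier of its sgCtrl1 peaks. For PSAT1 the place was 39.3% of the list with sgCCAAT2a and 35.5% with sgCCAAT2b, against 21.6% with sgCtrl1 and 11.9% with sgCtrl2. For MTHFD2 it was 33.3% and 28.4% in the edited lists, against 13.7% and 11.1% in the controls. ATF4 stood at 57.8% and 40.5% in the edited lists, against 28.0% and 12.8% in the controls. PSPH stood latest of these genes in the edited lists, at 89.6% and 81.2%, against 47.7% and 24.9% in the controls. MTHFD1 was at 29.7% and 28.1% in the edited lists, against 16.8% and 26.6% in the controls, so its edited and sgCtrl2 places were close. The edited lists are shorter and the order of their entries is not explained, so place in percent cannot tell whether binding changed. How many of all genes with edited and control peaks also stood later in the edited lists was not counted. The later places are therefore not read as particular to these 6 genes.

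**Figure D3:**
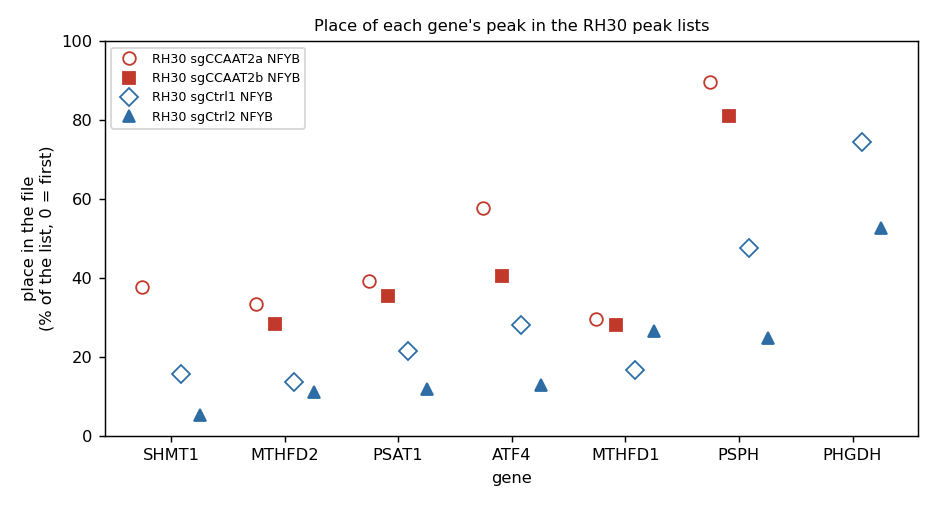
Place of each gene's peak in the 4 RH30 lists, in percent of the list from its first entry, for the 7 genes with a peak in both controls (red edited, blue control; for MTHFD2 with sgCtrl1 the earlier of its peaks). In both edited lists PSPH has the latest place of these genes, at 89.6% and 81.2%, and SHMT1 with sgCtrl2 has the earliest place of all, at 5.38%.

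Genes of like place gave different shares of peaks in the edited lists. Within 250 places in the sgCtrl2 list, 83.9% of 442 genes for MTHFD2, 82.2% of 450 for PSAT1 and 77.8% of 463 for ATF4 had a peak in both edited lists. For PSPH the share was 51.4% of 350 genes, and for MTHFD1 it was 46.7% of 323, and both have later sgCtrl2 peaks. All 5 of these genes had peaks in both edited lists.

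**Figure D4:**
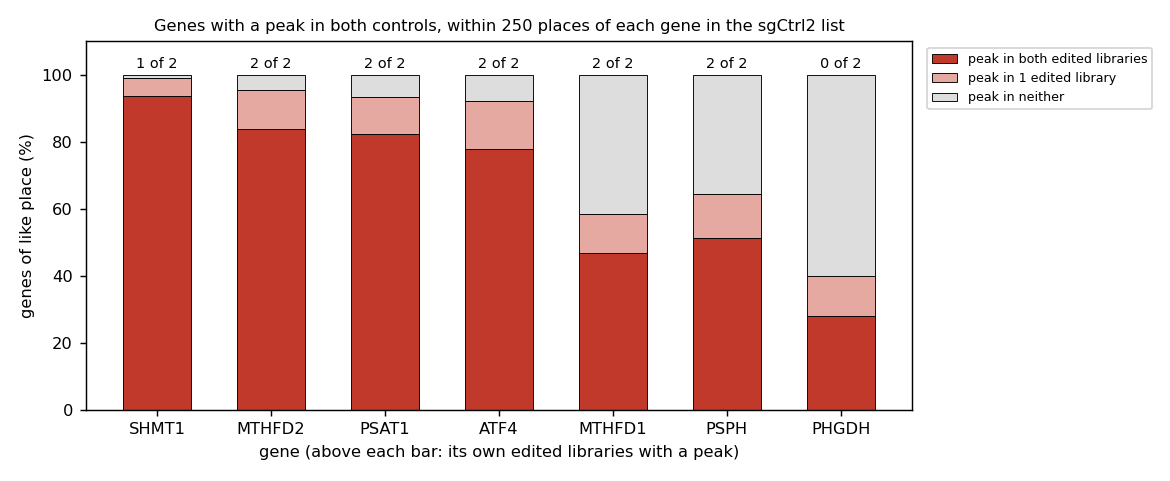
Genes with a peak in both controls and an sgCtrl2 peak within 250 places of that of each named gene, split by whether they had a peak in both edited lists, in 1, or in neither (stacked bars, percent of those genes). Above each bar stands the number of edited lists in which the named gene itself had a peak; SHMT1, with 1, stands beside 474 genes of which 93.7% had both, and PHGDH, with 0, beside 50 genes of which 28.0% had both.

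The authors' deposited tables list sgCtrl2 peaks called higher in sgCtrl2 than in another RH30 library, so their direction runs control over edited. In the authors' deposited table of sgCtrl2 over sgCCAAT2a, 4 of the 7 genes with an sgCtrl2 peak were listed (57.1%), namely PHGDH, PSPH, SHMT1 and ATF4, against 56.6% of all genes with such a peak. In the authors' deposited table of sgCtrl2 over sgCCAAT2b, 2 of 7 were listed (28.6%), PSPH and SHMT1, against 50.9% of all. In the authors' deposited table against sgCtrl1, 0 of 7 were listed, against 11.7%. The first of these shares is near the background, and the others rest on 7 genes and 1 library each. Among genes of like place, 32.0% to 51.0% were listed over sgCCAAT2a and 30.0% to 46.4% over sgCCAAT2b. Over sgCtrl1, 10.0% of the genes of like place were listed for PHGDH and 1.08% to 2.29% for the other named genes. PSAT1, MTHFD1 and MTHFD2 were in none of the authors' deposited tables. All of the authors' deposited tables share the sgCtrl2 library.

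PHGDH was listed in the authors' deposited table against sgCCAAT2a and not in that against sgCCAAT2b, although neither edited list had its peak. SHMT1 was listed in the authors' deposited tables against both edited libraries, although the sgCCAAT2a list did have its peak. A missing peak and a listing in the authors' deposited tables are therefore separate calls. The ASNS peak at the inner start was listed in the authors' deposited tables over sgCCAAT2a and over sgCtrl1, and not over sgCCAAT2b.

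Further genes of the same metabolism were counted from lists chosen for their role, with earlier results of these data known. Of 14 folate cycle genes, 0 had a peak with sgCCAAT2a and 0 with sgCCAAT2b, against 2 with sgCtrl1 and 3 with sgCtrl2, and 2 each with NFYB and NFYC in RH4 cells. Of all genes, 8.9%, 9.27%, 12.6%, 16.8%, 15.0% and 15.3% had a peak in these lists in the same order, so no difference is read from these small counts. FPGS, which adds glutamates to folate, had a peak with both controls and in both RH4 lists and in neither edited list. Such an absence from both edited lists was seen for 21.7% of all 2258 genes with a peak in both controls. MTHFS, which acts on formyl-folate, had a peak with sgCtrl2 alone. Of the 14, 11 had none in any list, ALDH1L1 and ALDH1L2 among them, where 78.3% of all genes had none.

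Of 10 genes of glycine cleavage and serine handling, 3 and 2 had a peak in the edited lists, against 3 and 4 in the controls, and 5 and 4 in RH4 cells, where the shares of all genes were 8.9% and 9.27%, 12.6% and 16.8%, and 15.0% and 15.3%. The neutral amino acid transporters SLC1A4 and SLC1A5 had a peak in all 6 lists. GCSH, a glycine cleavage protein, shared the pattern of SHMT1, present everywhere but with sgCCAAT2b. Of 10 genes of the methionine cycle and transsulfuration, 2 had a peak in each RH30 list, 3 with NFYB and 2 with NFYC in RH4 cells, and the same shares of all genes, 8.9% to 16.8%, stand beside them. CTH, which makes cysteine from cystathionine, and MTR, the folate-dependent methionine synthase, had one in all 6, and CBS with RH4 NFYB alone.

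**Figure D5:**
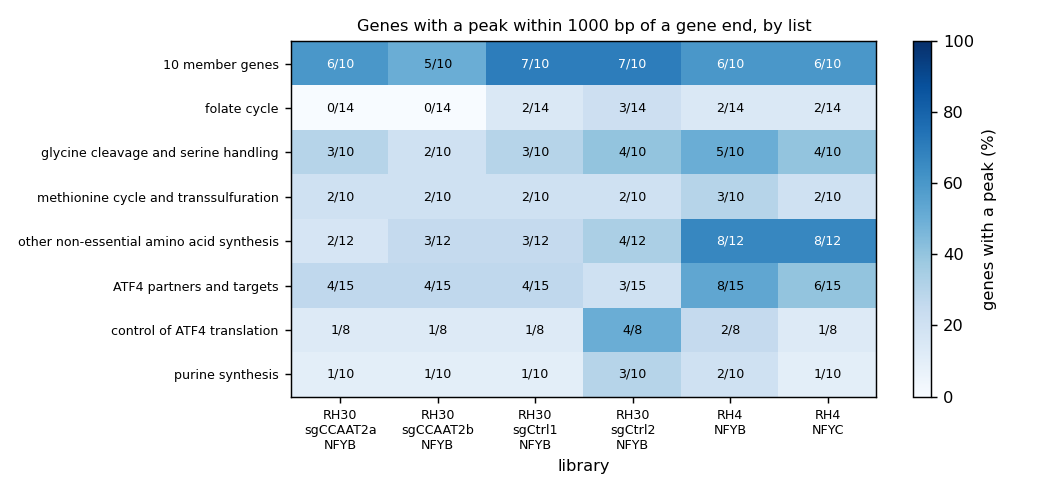
Genes with an NF-Y peak within 1000 bp of a gene end, as number of genes in the list and as percent (colour), for the 10 genes described here (top row) and 7 further lists (rows) in each of the 6 libraries (columns). The top row has 5 to 7 of 10 genes in each library, and the folate cycle has 0 of 14 in both edited libraries. Of all genes, 8.9% had a peak with sgCCAAT2a and 9.27% with sgCCAAT2b, and no difference is read from the small folate cycle counts.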

How the data were processed

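The deposited values used are positions of peaks, in bp, which the authors gave for 6 CUT&RUN libraries, with 1 shared RH4 list and 3 differential tables (10 files); the 2 IgG libraries were not analysed here. Column 5 holds a constant of 1, so peaks have no score. Each RH30 library was called by itself with findPeaks of HOMER (factor style), per the file headers, at 2-fold over the same input (S3) for all 4 libraries, 4-fold over the surrounding 10000 bp and a p over input of 0.0001. The differential tables used HOMER's tool for differential peaks at a 2.5-fold difference and p 0.001 (Poisson), per the file headers. For RH4, the sources used here name no caller of the lists. The submitters' processing notes name FastQC, Trimmomatic, Bowtie2, MACS2, bedtools, HOMER, deepTools and hg38.

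Libraries were grouped by title. A gene had a peak when any base of the peak fell within 1000 bp of either end of the gene in the RefSeq table of GRCh38.p14, for 20033 protein-coding genes; coordinates count from 1. Strand and starts came from the RefSeq promoter table. Genes of like place had a peak in both controls and an sgCtrl2 peak within 250 entries. The shares of all genes stand as background, and no p-value was computed, since each group has 1 library. Alternatives were windows of 500 and 3000 bp, the peak centre in the window, the 5′ end alone, the first 50% of entries of each RH30 list with the widest 50% of each RH4 list (planned as the stricter part, but no score ranks the peaks), an overlap of 50% of both peaks, CCAAT within 150 bp before the start and, chosen after seeing the data, listed starts besides gene ends. The genes and lists were chosen with earlier results of these data known. All 10 genes are named, and of each further list at most 6 genes, ranked by the number of libraries with a peak, ties in alphabetical order; neighbours whose window holds a peak of the 10 genes, and PAX3, are named as well. Some genes of the further lists are counted but not reported by name here. Overlap counts were checked on simulated lists with bedtools 2.31.1. Scripts used Python 3.11.15 and pandas 2.3.3.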

Additional observations from a re-analysis of the deposited data

How the results depend on the processing

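The counts of the 10 genes with a peak were computed again under each alternative. Of 55 recomputed counts, 52 stayed within 1.5 times the main count and 3 moved. With the first 50% of entries of each RH30 file and the widest 50% of each RH4 list, neither of which is known to be the stronger part, 3 genes had a peak in all 6 libraries, PSAT1, MTHFD1 and MTHFD2, and the same 3 had one in both edited libraries among genes with one in both controls, against 5 in the full lists for either count. That setting removed PHGDH from both controls. It also lowered the counts of all genes with a peak. With sgCCAAT2a they fell from 1782 to 1124 and with sgCCAAT2b from 1857 to 1198. With sgCtrl1 they fell from 2523 to 1853 and with sgCtrl2 from 3362 to 2830. In RH4 cells they fell from 3010 to 1644 for NFYB and from 3074 to 1823 for NFYC. An overlap of 50% of both peaks left 3 genes with matching RH4 NFYB and NFYC peaks, PSPH, MTHFD1 and ATF4, against 6 with an overlap of 1 bp; RH4 NFYB peaks are wider, with a median of 411 bp against 190.5 bp for NFYC. Windows of 500 and 3000 bp and the peak centre in the window changed none of the counts of the 10 genes. The 5′ end alone lost PSPH, for which the promoter table gave no start here. Listed starts added ASNS with sgCtrl2, for 8 of 10 genes there. CCAAT within 150 bp before the start was in 5 of 8 genes, where 31.5% of all genes with an entry had it. In the whole window it was in 6 of 8, where 42.1% of all genes had it. No paired analysis was possible because each group holds 1 library, so the groups compared share fewer than 2 replicate numbers. Peak heights were not used, so a peak near the calling threshold cannot be told from a strong one, and an absent peak gives no upper limit on binding.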

Other observations

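ATF4 works with partner factors and activates further genes. Of these partners and targets, 15 were counted from a list chosen for their role, with earlier results of these data known. Of them, 4 had a peak with sgCCAAT2a and 4 with sgCCAAT2b, against 4 with sgCtrl1 and 3 with sgCtrl2, and 8 with NFYB and 6 with NFYC in RH4 cells. Of all genes, 8.9%, 9.27%, 12.6%, 16.8%, 15.0% and 15.3% had a peak in these libraries in the same order, and the sgCtrl2 count is near its share. The stress-induced genes DDIT4 and SESN2 had a peak in all 6 libraries, and DDIT3, a partner of ATF4, in all but sgCtrl2. CEBPG, another partner, had a peak in both edited and both RH4 libraries and in neither control. CHAC1, which degrades glutathione, had one in both controls and both RH4 libraries and in neither edited library. Among all 2258 genes with a peak in both controls, 21.7% had one in neither edited library. The share of all genes with the pattern of CEBPG was not computed. Of 8 genes that control ATF4 translation, EIF2AK3, the kinase that responds to stress of the endoplasmic reticulum, had a peak in all 6 libraries. EIF2AK1, EIF2AK4 and PPP1R15A had one with sgCtrl2 alone, the longest list, in which 16.8% of all genes had a peak. Counts for the 8 genes were 1 and 1 in the edited libraries, 1 and 4 in the controls, and 2 and 1 in RH4 cells. The share of all genes with a peak in sgCtrl2 alone was not computed, and no difference is read from these small counts.

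Of 12 other genes of non-essential amino acid synthesis, 2 and 3 had a peak in the edited libraries, against 3 and 4 in the controls, and 8 each with NFYB and NFYC in RH4 cells, beside the same shares of all genes. GOT1, the cytosolic aspartate aminotransferase, had one in all 6. ASL, of arginine synthesis, had one in all but sgCCAAT2a, PYCR1, of proline synthesis, in sgCtrl2 and both RH4 libraries, and ASS1, which acts before ASL, and GLUL, glutamine synthetase, in both RH4 libraries alone. Of 10 purine synthesis genes, GART had a peak in all 6 libraries, and 7 had none, as did 78.3% of all genes.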
